A study of Mus musculus with 8 samples.

Results

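Knockout-only sites are the RNA positions that an anti-Zmat3 crosslinking and immunoprecipitation (CLIP) experiment called in Zmat3-/- cells and in none of the 3 control lines. A member was an autosomal called peak of the knockout IP over input that no called peak of a control IP over input overlapped by 1 nt or more on the same strand. Members were thus chosen by called positions, and neither the fold nor the p-value entered the rule. It selected 95321 of the 164219 autosomal knockout peaks, out of 573023 called IP-over-input peaks in the whole series.

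All lines were mouse embryonic fibroblasts that carried the oncogenes E1A and HrasG12V. The 3 controls were Cas9+;E1A;HrasG12V cells with the negative-control guide RNAs EV (control 1), SPA (control 2) and ACOCA (control 3). The knockout was 1 line of genotype Zmat3-/-;E1A;HrasG12V with no guide RNA, made from separately derived knockout fibroblasts. Genotype, line of origin, the presence of Cas9 and the library therefore cannot be told apart. After UV crosslinking and RNase treatment, RNA bound to material of 35 to 110 kDa was sequenced for 4 IPs and their 4 inputs. Per the labels nothing ties the controls to separate embryos, so the spread over controls may be partly technical.

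Zmat3 is a zinc-finger RNA-binding protein whose gene is activated by p53, and it is known to bind mainly introns and to influence alternative splicing of transcripts such as Mdm4. In CLIP, ultraviolet light joins a protein to the RNA it touches, and the antibody recovers the joined fragments. Antibodies, beads and gel slices also carry over RNA that the protein did not bind, above all from long and abundant transcripts. An IP from cells that lack the protein samples that carried-over RNA, and it is the usual measure of background in such an experiment.

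Where a RefSeq sequence (GRCm38.p6, the same coordinates as mm10) covered a member, its letters could be printed. The sites below were picked for high folds, where the median over all members was 0.23, so they are not typical members. The authors' −log10 p-values ran from 0.51 to 1.78 at the microRNA sites and from 0.52 to 1.08 at the start sites. Only the Mir92-1 site reached 1.3. The first set gives the microRNA precursors with the highest-fold sites that overlapped a mature microRNA, because these sites can be read against a known product. Capitals mark the bases inside the site, and sequences run 5′ to 3′.
Mir29b-1 hairpin, chr6:31063023-31063093, minus strand, log2 fold over input 2.35: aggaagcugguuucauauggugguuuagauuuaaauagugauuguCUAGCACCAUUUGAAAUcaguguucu
Mir92-1 hairpin, chr14:115044427-115044506, plus strand, log2 fold over input 2.29: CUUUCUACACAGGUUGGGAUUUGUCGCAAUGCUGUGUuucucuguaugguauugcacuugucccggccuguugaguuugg
Mir186 hairpin, chr3:157544279-157544349, plus strand, log2 fold over input 2.23: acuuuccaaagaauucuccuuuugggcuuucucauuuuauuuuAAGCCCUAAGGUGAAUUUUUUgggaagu
Mir671 hairpin, chr5:24592114-24592211, plus strand, log2 fold over input 2.23: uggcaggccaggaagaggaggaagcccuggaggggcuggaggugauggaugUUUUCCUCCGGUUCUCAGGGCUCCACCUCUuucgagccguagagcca
Mir193a hairpin, chr11:79711969-79712034, plus strand, log2 fold over input 1.97: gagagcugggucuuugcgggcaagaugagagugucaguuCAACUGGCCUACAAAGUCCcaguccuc
In 4 of these 5 precursors the site covered the 3′ arm; in Mir92-1 it covered the 5′ arm. The mature products follow, with the seed (bases 2 to 8, the stretch that pairs with target messages) in capitals.
mmu-miR-29b-3p: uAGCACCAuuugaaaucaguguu
mmu-miR-92a-1-5p: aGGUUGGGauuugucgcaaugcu
mmu-miR-186-3p: gCCCUAAGgugaauuuuuuggg
mmu-miR-671-3p: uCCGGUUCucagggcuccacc
mmu-miR-193a-3p: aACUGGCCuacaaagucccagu
These 5 products have 5 different seeds. In each of the 5 precursors the site held the whole seed of its product. Of these products, miR-29b-3p is known for targeting collagen messages, which is background and not a result here.

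The second set gives the short members upstream of the listed start of a gene with the highest folds, because start windows are the other places where letters were at hand. Every letter printed lies in the site.
Septin9, chr11:117332105-117332127, plus strand, −208 to −186 from the start, log2 fold 2.45: CATCGGTTAAAGGCTAGGGCTGC
Eif5a, chr11:69920649-69920669, minus strand, −39 to −19 from the start, log2 fold 2.23: TTGGAGGCTGCCCTCGGGGTC
Rere, chr4:150281792-150281817, plus strand, −124 to −99 from the start, log2 fold 2.11: CCTCCGGTGGGAGCCACTCGCCCTCT
Cux1, chr5:136566082-136566108, minus strand, −127 to −101 from the start, log2 fold 1.82: CGCGCTCTTTTGTGTGTCTTCTGCGTG
Each lay upstream of the listed start and on the strand of the gene. By its midpoint each was also assigned to that gene, so it lay inside the gene's RefSeq span. These sites are thus not upstream of the whole gene. Over the 219 members that lay in a window from 250 bases before to 50 bases after a start, G made up 36.6% of bases, C 29.5%, T 17.7% and A 16.3%. The 368 knockout peaks in such windows that a control peak overlapped had 38.8% G, 32.9% C, 14.5% T and 13.8% A. All 31396 windows in the table had 27.3% G, 26.6% C, 23.0% T and 23.1% A. Sites of both kinds were richer in G and C than the windows at large, and members somewhat less so than shared peaks.

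The knockout IP had more called peaks than any control IP and a larger part of them stood alone. By the rule, 58% of its autosomal peaks were knockout-only (95% Wilson interval 57.8% to 58.3%, counting error only). The same rule applied to each control against the other 3 libraries gave 59237 of 127149 peaks (46.6%) in control 1, 76475 of 149947 (51.0%) in control 2 and 55849 of 119940 (46.6%) in control 3. The mean over controls was 48.1% ± 2.55 (SD, n = 3). The knockout lay above all 3 controls, and in no library was the part called alone small. In rank, the share called alone followed the number of called peaks over the 4 libraries, with controls 1 and 3 nearly level in share. With 1 knockout library an exact permutation of 1 against 3 cannot give a p below 0.25, so no test was run and all values here describe these libraries. Peaks overlapped in all 3 other libraries made up 9.50% of knockout peaks, against 12.2%, 10.6% and 12.7% in controls 1 to 3. Peaks called alone were thus common in every library of the series, and peaks called throughout were few. No list gives reads per peak, so sequencing depth is unknown, and the number of called peaks is all that can be set beside it.

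**Figure D1:**
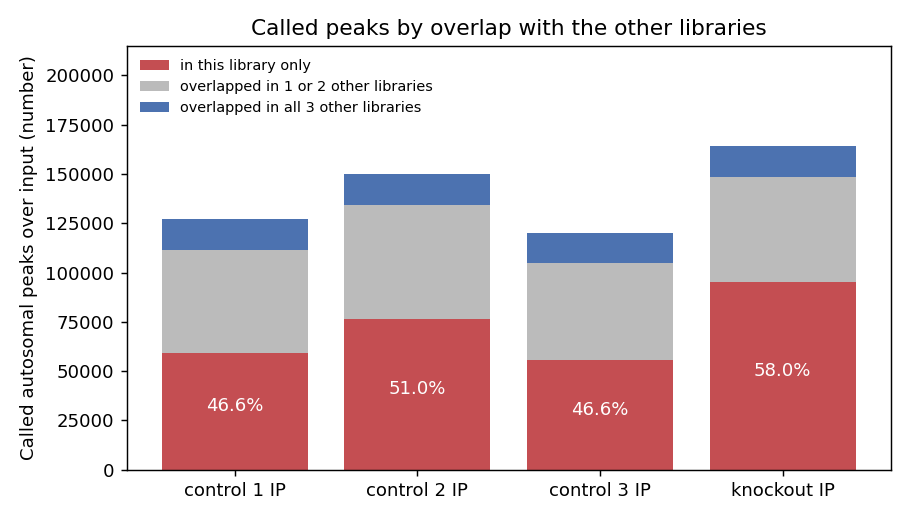
Stacked bars give the number of called autosomal peaks over input in each of the 4 IPs, split by whether a peak of the other 3 libraries overlapped them. The knockout bar is the tallest, at 164219 peaks, and its part called in that library alone is 58.0% against 46.6% to 51.0% in the controls.

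Most knockout-only sites were short and had a log2 fold over input near 0. Their median length was 37 nt (quartiles 27 and 50), against 51 nt for the 68898 knockout peaks that a control peak overlapped. Their median log2 fold of IP over input was 0.23 (quartiles −0.35 and 0.65, range −3.47 to 4.78). At 30777 members (32.3%) the log2 fold was below 0, and the authors' −log10 p-value was 0 at 87.3%. Shared knockout peaks had a median of −0.03, with 53.1% below 0 and 76.8% at a −log10 p-value of 0. A −log10 p-value of at least 1.3 was reached by 420 members (0.441%), where all autosomal knockout peaks reached it in 1.58%. Members therefore gathered near 0 more tightly than shared peaks, with fewer strong sites on either side. These folds come from the contrast that chose the members and are given as a description.

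The folds of the members took few distinct values. A log2 fold of 0.23 was held by 29470 of them (30.9%), 0.65 by 15.9%, −0.77 by 9.08%, −0.35 by 7.71% and 0.97 by 7.66%. On a linear scale 74.8% of members were whole multiples of a step of 0.391 (tolerance 0.0001), with 3 steps at the commonest value, and 47.6% of shared knockout peaks were. The same ladder stood in the controls with steps of 1.24, 1.01 and 0.756, and the commonest value was 3 steps in each library. A few values of this ladder thus account for most of the members. Without reads per peak, a fold near 0 cannot be read as an IP level equal to a measured input level. Because the step differs between libraries, a median fold of one library cannot be set against that of another.

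**Figure D2:**
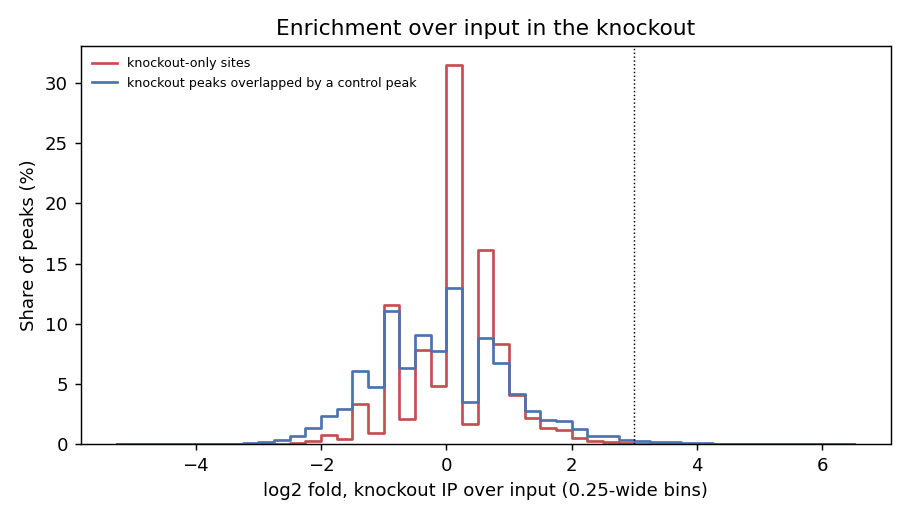
The share of peaks (%) is plotted in 0.25-wide bins of the log2 fold of knockout IP over input, for knockout-only sites and for knockout peaks overlapped by a control peak; the dotted line marks 3. Knockout-only sites pile up just above 0, where the single value 0.23 holds 30.9% of them, and the shared peaks spread further to both sides.

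Knockout-only sites were spread over the classes of genes much as the other peaks were, except for smaller shares in small RNAs and pseudogenes. Protein-coding genes held 93987 of them, which was 58.4% of the knockout peaks in that class, against 46.9%, 51.4% and 46.9% of the peaks of controls 1 to 3 called alone. Long non-coding RNAs held 795 (52.8% of the class) and pseudogenes 122 (37.8%), and 355 lay in no annotated gene. Small RNA genes stood apart, with 62 of 915 knockout peaks being members (6.78%), and 4.30%, 4.79% and 4.02% of the small RNA peaks in controls 1 to 3 were called alone. Most small RNA peaks were thus overlapped by a peak of another library, in the knockout as in the controls. Of 74854 members in genes of known strand, 99.7% were sense and 217 were antisense. They sat at a median of 47.1% of the gene span from its 5′ end, against 54.3% for shared peaks. With the span cut into 10 equal parts, the first part held 12.3% of members against 15.8% of shared peaks, and the last part 11.4% against 15.9%, so members were spread more evenly along genes.

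Many members were near neighbours of control peaks. The nearest called control peak on the same strand lay a median of 276 nt away (quartiles 92 and 856), with 14042 members (14.7%) nearer than 50 nt and 21149 (22.2%) farther than 1000 nt. Just inside the rule, the 1820 members with a gap of 0 to 4 nt had a median log2 fold of 0.23 and a median length of 37 nt, and 4 of them were enriched. Just outside it, 2516 knockout peaks with an overlap of 1 to 5 nt had a median of 0.23 and 33 nt, and 10 were enriched. Peaks on both sides of the line thus looked alike. Only 2947 members (3.09%) lay more than 10000 nt from any control peak.

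Genes with many knockout-only sites were long genes. At least 1 member fell in 8887 of the 10005 genes with a called knockout peak (88.8%), with a median of 5 members, and 1714 genes held 1. Genes with 20 or more numbered 1193 and held 55.6% of all members, and 85 genes with 100 or more held 13.8%. The genes with 20 or more spanned a median of 110605 nt, against 24702 nt for all genes with a called knockout peak and 2090.5 nt for those with a peak but no member. By the same count, 582, 829 and 526 genes had 20 or more peaks called alone in controls 1 to 3 (646 ± 161, SD, n = 3). In 932 of the 1193 genes the members outnumbered the peaks called alone in each control. The genes below were picked by the knockout count, and the knockout had most called peaks, so a higher knockout count there is a description.

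Exoc4, a subunit of the exocyst that tethers secretory vesicles, had most members: 339 of its 486 knockout peaks (chr6:33249090-33973979). Its called peaks numbered 183, 388 and 130 in controls 1 to 3, of which 83, 251 and 56 stood alone. Control 2 was far closer to the knockout than the others were. Wwox, an oxidoreductase-related tumour suppressor in a common fragile site, had 324 of 473, with 449, 208 and 368 called peaks in the controls. There controls 1 and 3 were the ones near the knockout. Gse1, which encodes a coiled-coil protein of a histone demethylase complex, had the same order, with 291 of 476 members and 426, 205 and 385 control peaks.

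In other genes all 3 controls lay well below the knockout. Mecom, a zinc-finger transcription factor gene of blood stem cells, had 311 of 416, with 144, 155 and 115 control peaks. Cdk14, a cyclin-dependent kinase gene of Wnt signalling, had 307 of 370 with 72, 110 and 92. Camk1d, a calcium- and calmodulin-dependent kinase gene, had 238 of 300 with 55, 152 and 57. Apbb2, which encodes an adaptor of the amyloid precursor protein, had 223 of 288 with 112, 136 and 64. In each of these 4 genes every control had fewer called peaks in all than the knockout had members. The same held in Ptprg (247 members beside 184, 122 and 154 control peaks) and Prkca (202 beside 131, 182 and 109). It also held in Cacnb2 and Ghr.

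Cacnb2 and Ghr went furthest among the 15 genes with most members. Cacnb2, a regulatory subunit of voltage-gated calcium channels, had 204 of 217, and controls 1 to 3 had 0, 46 and 0 called peaks. Ghr, the growth hormone receptor, had 190 of 200 beside 3, 25 and 2 control peaks. Control 2 was the highest control in both. Mast4, a microtubule-associated kinase gene, was the one gene of the 15 in which a control had more peaks of its own than the knockout: 195 members against 60, 204 and 53 peaks called alone in controls 1 to 3. The remaining genes of the 15 were Magi1 (265 of 421), Ptprg (247 of 340), Frmd4a (209 of 352), Prkca (202 of 285) and Dock1 (196 of 308), which encode a junction scaffold, a receptor phosphatase, a cell polarity scaffold, protein kinase C alpha and a Rac activator. Pvt1, a long non-coding RNA gene next to Myc, tied with Ghr at 190 members, but these were 47.6% of its 399 peaks.

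**Figure D3:**
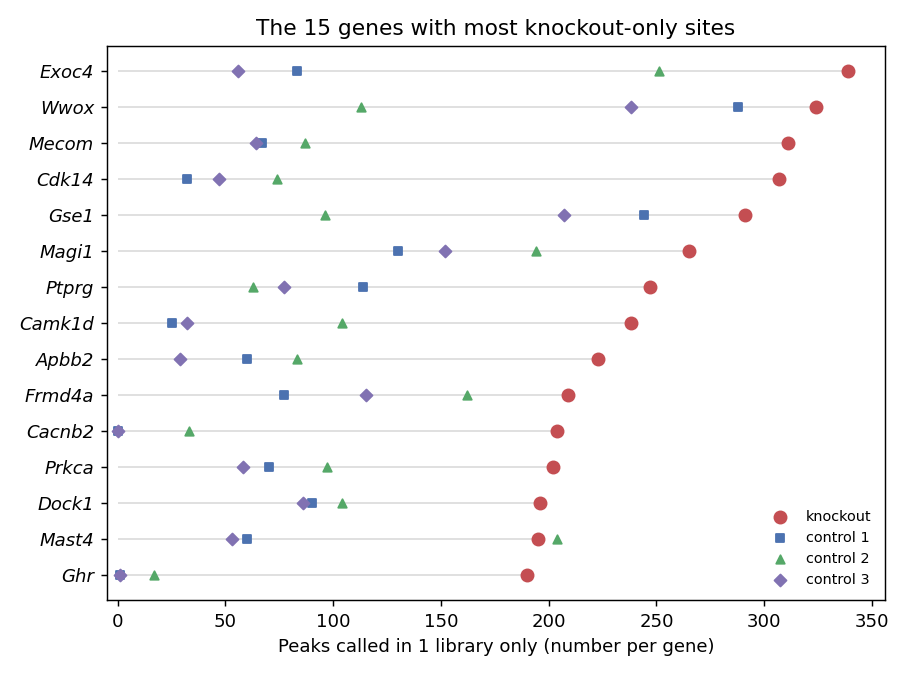
For the 15 genes with most knockout-only sites, points give the number of peaks called in 1 library alone, for the knockout (circles) and each control. The knockout point is the rightmost in every gene but Mast4, where control 2 reached 204 against 195, and in Cacnb2 and Ghr all 3 controls had at most 33 such peaks. The genes were picked by the knockout count, which favours this order.

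Share and number gave different genes. Among the 2288 genes with 20 or more knockout peaks the median knockout-only share was 59.8% (quartiles 44% and 71.4%), and 14 genes reached 100%. Of those 14, the first 10 by symbol were Arhgef28 (20 members), Auts2 (44), Cdh13 (35), Dach1 (42), Dpysl3 (30), Igsf11 (21), Kat6b (32), Pdpn (43), Slc25a26 (20) and Slco2a1 (22). A share of 100% did not mean that controls lacked the gene. Kat6b, a histone acetyltransferase gene, had 6, 8 and 5 peaks in controls 1 to 3, all at other positions. Slc25a26, the mitochondrial carrier of S-adenosylmethionine, had 1, 2 and 2.

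**Figure D4:**
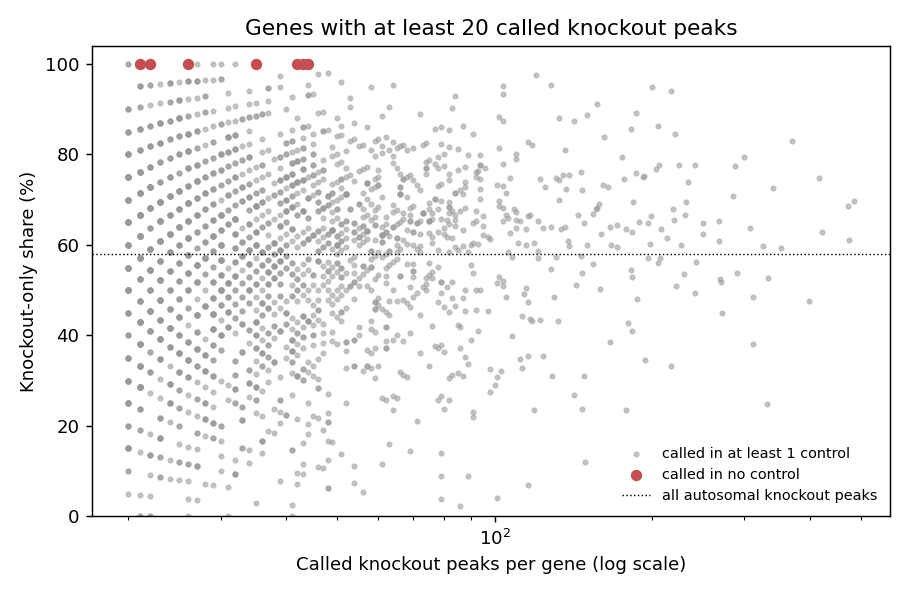
Each point is a gene with 20 or more called knockout peaks, placed by its number of peaks (log scale) and its knockout-only share (%); larger points mark genes called in no control, and the dotted line is the share over all autosomal knockout peaks. Shares spread widely around a median of 59.8%, and the genes called in no control sit at 100% with 21 to 44 peaks.

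A total of 466 genes had a called knockout peak and no called peak in any control, and 458 of them held 1070 members. Most had little: 306 held 1 member, and 18 held 10 or more. The genes called in 1 library alone numbered 225 in control 1, 472 in control 2 and 188 in control 3, of which 0, 7 and 0 had 10 or more peaks. The knockout thus resembled control 2 in the number of such genes and exceeded every control in the number with 10 or more.

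Auts2, a gene of nervous-system development whose product joins a Polycomb complex, led with 44 sites over 1105888 nt. Pdpn, the membrane glycoprotein podoplanin of lymphatic vessels and fibroblastic stroma, had 43 sites in a span of 32156 nt, the most compact of these genes with over 20. Dach1, a nuclear repressor that works with Eya factors, had 42, and Eya2, a phosphatase and coactivator of the same network, had 16. Cdh13, a cadherin held to the membrane by a lipid anchor, had 35. Arhgdib had 15 sites in a span of 18245 nt. Sorcs2 (26), Slco2a1 (22) and Igsf11 (21) encode a sorting receptor, a prostaglandin transporter and an adhesion molecule, and Fbxl7 (15) encodes an F-box protein. The highest log2 fold over input among their sites was 2.45 (Pdpn), so none was enriched by the threshold used below. Fewer cells that make an RNA and less of that RNA per cell cannot be told apart in these lists, nor can either be told from lower recovery.

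The controls were also compared directly with the knockout IP. The folds of these lists did not enter the rule, but the lists share the knockout IP with it. Their peaks numbered 127159, 149953 and 119955 in controls 1 to 3, against 127149, 149947 and 119940 over input. In the 15 genes with most members the counts of both kinds of list were equal. Called peaks of these lists overlapped 0, 1 and 0 members, so the folds describe other positions of the genes. The rule had already removed knockout peaks that a control over-input peak overlapped. With nearly equal numbers of peaks in both kinds of list, this count was largely set in advance. Each list holds the called peaks of 1 control with the log2 fold of that control over the knockout. The median over all its autosomal peaks was 1.18, 0.88 and 1.00 in controls 1 to 3, so values are given relative to that median. Among 4713 genes with 5 or more peaks in each list, the gene median was below the list median in all 3 controls in 23.9% and above it in all 3 in 20.3%. Among genes with 20 or more members it was below in 326 of 1105 (29.5%) and above in 94 (8.51%). With 50 or more members it was below in 126 of 264 (47.7%), and with 100 or more in 49 of 79 (62.0%), where 3 were above. The share below was thus larger in groups of genes with more members. The number of members and these folds both depend on the knockout IP and on the control peaks. This rise is therefore a description and no separate support. Without centring, a gene median below 0 in all 3 controls was found in 0.997% of the 4713 genes and in 1.27% of those with 100 or more members, so the direction is relative to the list.

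Of the 15 genes with most members, 14 had called peaks in all 3 controls and 12 lay below the list median in all 3; without centring 0 did. Mecom was at −1.07, −1.0 and −0.83 in controls 1 to 3 (−0.97 ± 0.12, SD, n = 3). Prkca was at −1.0, −0.83 and −0.83 (−0.89 ± 0.10) and Camk1d at −1.17, −0.58 and −0.83 (−0.86 ± 0.29). Ptprg and Dock1 were nearer the list, at −0.50 ± 0.08 and −0.53 ± 0.10. Each of these 5 was further below the list median than the SD over its controls, and without centring their means were 0.05, 0.14, 0.16, 0.52 and 0.49. Gene medians took few distinct values here too. Control 2 was at −0.58 in Camk1d, Ptprg and Dock1 alike, and control 3 at −0.83 in Mecom, Prkca and Camk1d. A small SD may thus come from shared steps of the fold and does not measure agreement between controls. Wwox was at 0.00, −0.17 and 0.00 (−0.06 ± 0.10), which does not stand clear of the list median. Gse1 was at −0.17, −1.0 and −0.13 and Mast4 at −0.91, 0.00 and −0.83, so in both of them 1 control stood apart. For Ghr the mean of −1.22 ± 0.84 rested on 3, 25 and 2 peaks.

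**Figure D5:**
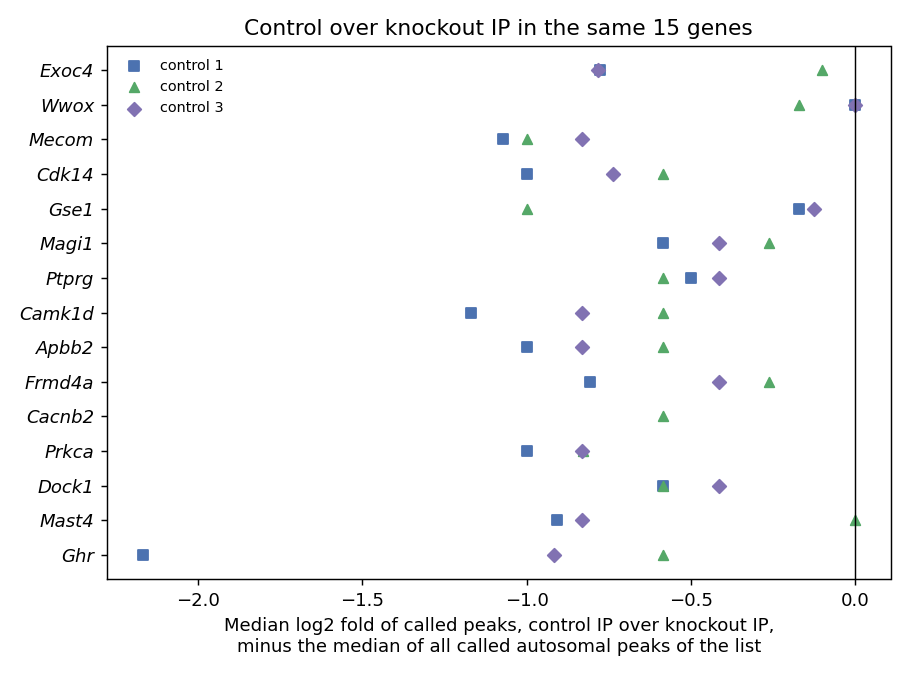
For the same 15 genes, points give each control's median log2 fold over the knockout IP of the gene's called peaks, minus the median of all called autosomal peaks of that list (0, vertical line). Points lie left of 0 for all 3 controls in 12 genes; Wwox and Mast4 touch 0, and Cacnb2 has a point for control 2 alone.

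A small set of knockout-only sites was strongly enriched over input. Here a site counts as enriched when the authors' log2 fold and −log10 p-value both reach 3. By this, 59 members passed (0.0619%), where 521 of all autosomal knockout peaks did (0.317%), and 462 of these 521 were shared with a control. In controls 1 to 3, 119 (0.201%), 142 (0.186%) and 13 (0.0233%) of the peaks called alone passed. Of all autosomal peaks of these controls 1.03%, 1.06% and 0.497% passed. Because the step of the folds differs between libraries, a threshold of 3 is not alike across them. The contrast is the one that chose the members, so the difference in share is a description. The 59 lay in 36 genes and had a median length of 64 nt, and 40 lay in a gene that also held an enriched shared peak. A control peak lay within 50 nt of 26, and 13 touched a knockout peak that was shared. Many of them therefore lay beside a place that controls had called too.

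Dusp5, a nuclear phosphatase that dephosphorylates ERK and is induced by it, held the tallest members. Its sites at chr19:53539646-53539683, chr19:53539451-53539470 and chr19:53539538-53539569 had log2 folds over input of 4.78, 4.67 and 3.58, and the nearest control peaks were 20, 4 and 15 nt away. These were 3 of 5 members among 46 Dusp5 peaks, and 15 shared Dusp5 peaks were enriched as well. Emp1, a membrane protein gene induced by growth factors, had 3 enriched members, the highest at chr6:135368675-135368763 with 4.14, and 3 enriched shared peaks. The controls were below the list median over the knockout in both genes, at −1.49 ± 0.31 for Dusp5 and −1.59 ± 0.56 for Emp1. Cd81, a tetraspanin gene, had a site of 4.35 at chr7:143056569-143056640, 7 nt from a control peak, and was at −1.62 ± 0.76. Without centring the means were −0.47 for Dusp5, −0.57 for Emp1 and −0.60 for Cd81. On that scale Emp1 lay below 0 in all 3 controls, whereas control 1 was at 0.02 for Dusp5 and control 2 at 0.06 for Cd81. A rule that also removed sites within 50 nt of a control peak left 0 of the 5 Dusp5 members, 5 of the 12 in Cd81 and 0 of the 2 in Mir92-1, and without control 1 Dusp5 had 8.

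Dock3 and Uggt2 were different, as neither had an enriched shared peak. Dock3, a Rac activator gene known from neurons, had 11 members among 12 knockout peaks, with 12, 16 and 6 control peaks, and its site at chr9:107009723-107009806 had a log2 fold of 4.53 and lay 306 nt from a control peak. Uggt2, a glycoprotein folding sensor gene, had 36 members among 40, with 6, 16 and 5 control peaks, and a site of 4.45 at chr14:119033369-119033488, 380 nt from a control peak. Against the knockout IP, Dock3 was above the list median (0.55 ± 0.34), and Uggt2 lay within its spread of it (−0.31 ± 0.34). Rftn1 (4.48, a raft protein gene), Prkca (4.32), Cdk17 (3.97, with 3 enriched members) and Ptprn (3.93) made up the named genes of this set with Mir92-1. Hmga2, a chromatin protein gene of embryonic and transformed cells, had 3 enriched members and no enriched shared peak, and is named here, as are Neat1, Rere and Samd4, after its values were seen. Rere, a nuclear receptor corepressor gene, also had 3, and Neat1, the RNA scaffold of paraspeckles, had 5. Samd4 (3.82) was 1 of the 2 enriched members more than 1000 nt from a control peak, at 2388 nt; the other, on chromosome 18 outside any annotated gene, had 4.04 and no control peak within a megabase.

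MicroRNA precursors and their surroundings recurred among the tall sites. Of 919 autosomal hairpins in the RefSeq table, 88 held a called knockout peak and 22 held a member, with 25 members in all, of which 17 overlapped an annotated mature sequence. Their log2 folds ran from −2.14 to 4.29 with a median of 0.97. The one enriched site that touched a hairpin began at the last base of Mir92-1 (chr14:115044506-115044594, 4.29), and a further enriched site lay 197 nt downstream in Mir17hg (chr14:115044703-115044795, 3.29), the host transcript of the miR-17-92 cluster. Another lay 302 nt from Mir29b-1 (chr6:31063395-31063457, 3.26). The last 2 lay in Mir100hg, 190 and 818 nt from Mir125b-1 (3.20 and 3.32). In all, 5 of the 59 enriched members (8.47%) lay within 2000 nt of a microRNA gene, against 24 of 462 enriched shared peaks (5.19%) and 0.648% of all members. The class is thus also present among enriched peaks that controls shared, and 5 sites are few.

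The targeted gene and its pathway held members without standing out by number. Zmat3 had 13 members among 38 knockout peaks (34.2%), beside 42, 48 and 39 control peaks, and its controls were above the list median over the knockout at 1.42, 0.89 and 0.91 (1.07 ± 0.30). With the mean of a gene's peaks in place of the median these became 0.48, 0.72 and −0.22, so control 3 changed side. RNA of the gene was still recovered from the knockout line, and since the sources used here do not name the deleted part, these peaks do not check the label. Mdm2, the ubiquitin ligase gene that restrains p53, had 17 of 52 with 1 enriched site (chr10:117689709-117689744, 3.02). Without control 2 its members numbered 34, and 11 remained when a control peak within 50 nt removed a site. Its controls had 24, 43 and 18 peaks and were at −3.02, −0.69 and −2.89. Cdkn1a, the p21 cell cycle inhibitor gene, had 9 of 35 (15 without control 3, and 5 under the 50 nt rule) and controls at −1.76, −0.68 and −2.39. In both p53 targets control 2 was nearest the list median, and without centring it was above 0, at 0.19 for Mdm2 and 0.21 for Cdkn1a, while the means were −1.18 and −0.59. Mdm4 had 16 of 29 and lay at 0.30 ± 0.13, or at 0.84 by the mean of its peaks. Trp53 had 4 of 17, with 8 without control 2 and 2 under the 50 nt rule. Cd44, an adhesion receptor gene, had 49 of 91 with 1 enriched site (3.60), beside 31, 88 and 41 control peaks, and was at −1.54 ± 0.63 (−0.52 without centring, with control 2 at 0.04).

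Gene lists were read against the 58.0% over all knockout peaks. The share was highest, among lists with over 100 knockout peaks, for TGF-beta and BMP signalling, where 21 of 22 genes with a knockout peak held 345 members of 540 peaks (63.9%). Smad3, a signal-carrying transcription factor gene, had 60 of 98. The receptor genes Tgfbr3, Tgfbr2 and Acvr1 had 48 of 53, 37 of 63 and 31 of 34. Tgfbr3 had 12, 10 and 14 control peaks and Acvr1 had 9, 19 and 5, so both were called more often in the knockout than in each control. The knockout also had more called peaks than each control over all genes. The 63.9% of the list lay within the quartiles of 44% and 71.4% over genes with 20 or more knockout peaks. Adhesion and guidance receptors held 428 of 740 (57.8%), and 187 of them were in Pcdh7, a protocadherin gene with 2, 93 and 0 control peaks. Cdh2, the N-cadherin gene, had 40 of 51 and Itga6, a laminin-binding integrin subunit gene, had 28 of 63.

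FGF, IGF, EGF and PDGF signalling held 398 of 743 (53.6%), with 102 of 171 in the receptor gene Igf1r, 37 of 70 in Fgfr1 and 29 of 57 in Insr. Igf2r had 40 of 129, of which 20 were antisense to it, and Airn, the long RNA transcribed across Igf2r on the other strand, had 44 of 67. Assignment ignored strand and took coding genes first, so members in the overlap of both spans counted for Igf2r. The Igf2r count may thus include Airn RNA. Hox genes held 35 of 63 (55.6%), spread over 12 of 16 genes, with 12 in Hoxa3. Imprinted genes held 194 of 423 (45.9%), including 23 of 49 in Grb10 and 19 of 35 in Ube3a. Regulators of p53 held 237 of 465 (51.0%), with 37 in Crebbp and 30 in Hipk2, and interferon response genes 42 of 82 (51.2%), with 18 in Ifih1. These lists lay near or somewhat below the share over all knockout peaks.

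A further 6 lists ranged from 28.1% to 47.4%. SR proteins, hnRNPs and other splicing regulators held 585 of 1234 (47.4%), with a member in 44 of 44 genes and 96 in Mbnl2, 83 in Rbfox2, 35 in Celf1 (23 under the 50 nt rule) and 34 in Mbnl1. Targets of p53 held 145 of 360 (40.3%), including 26 of 36 in Polk, a translesion polymerase gene, and 14 of 26 in Aen, an apoptotic nuclease gene (8 under the 50 nt rule). Nuclear long non-coding RNAs held 267 of 642 (41.6%), and all 5 enriched members of that list were in Neat1. Malat1, its neighbour on the chromosome, had 7 members among 79 peaks, and 11 without control 3, while Neat1 went from 19 to 30 without control 1. Basement membrane genes held 280 of 837 (33.5%), with 56 in Col4a2, 44 in Col4a1, 43 in Lamc1 and 42 of 178 in Hspg2. Interstitial matrix genes held 128 of 360 (35.6%), with 31 in Ltbp1 and 27 of 87 in Tnc, and snoRNA host genes 9 of 32 (28.1%), with 3 each in Eif4a1 and Ncl. In each of these lists a control peak overlapped most of the knockout peaks.

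Markers of fibroblasts were called in all 4 libraries, although not all of them. Of 20 fibroblast markers 9 had a called knockout peak, and 75 of their 241 peaks were members (31.1%), beside 205, 268 and 150 peaks in controls 1 to 3. The other 11, among them the collagen genes Col1a1, Col1a2 and Col3a1, had no called knockout peak. Fn1, the fibronectin gene, had 3 members among 79 peaks, and 6, 8 and 6 without control 1, 2 or 3. In the same list Col5a1 and Sparc had 24 of 58 and 10 of 28. Prrx1, a transcription factor gene of limb mesenchyme, was the exception, with 33 of 43 members and 6, 28 and 0 control peaks. Skeletal muscle markers had 0 called knockout peaks and 0, 1 and 0 in the controls. Of the neuron and glia, blood and macrophage, and endothelial markers 1 each was called in the knockout, with 6 members in Ncam1, 1 in Cd68 and 6 in Flt1. Ncam1 had 36, 47 and 27 control peaks and Flt1 55, 20 and 46, more than the 8 and 13 of the knockout. Epithelial markers had 19 knockout peaks and 8 members, 5 of them in Krt18, which had 0, 5 and 0 control peaks and 8 members without control 2. The 1 member in Cd68 became 2 without control 2. The part of other cell types in the knockout-only sites was not tested.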

How the data were processed

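The authors' deposited files were 7 peak lists without headers, on mm10 per the submitters' processing notes; 4 set an IP against input and 3 set a control IP against the knockout IP. Each peak had a −log10 p-value (0 where the log2 fold was below 0, and capped at 400) and a log2 fold, both deposited by the authors and identified from the values. No source used here names the aligner, the peak caller or the input library used.

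Overlaps, gaps and counts were computed here with Python 3.11.15, pandas 2.3.3 and numpy 2.4.6 (intervals with scipy 1.17.1) and tested on simulated data. Peaks in non-coding genes of at most 500 nt were called small RNA by any overlap. Others were assigned by midpoint to RefSeq gene spans, coding genes first. Strand was not used in the main assignment, and a peak in several genes was not named. Chromosome X was left out of the main counts.

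The genes named were Cd44, Cdkn1a, Mdm2, Mdm4, Trp53 and Zmat3, the 15 genes with most members, 10 each by share, by absence from controls and by enriched fold, and up to 4 per list; precursors and start sites were named by fold. The members and the 19 gene lists were chosen with earlier results of these data known. Alternatives varied the overlap rule, the thresholds, the gene assignment, the centring and the controls used.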

Additional observations from a re-analysis of the deposited data

How the results depend on the processing

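The number of knockout-only sites stayed within 1.5 times the reported count in all alternatives run, from 81279 with a control peak within 50 nt also removing a site to 108923 where a control peak had to cover most of it, and 105200 to 109011 with 1 control left out. The private shares of controls 1, 2 and 3 and the knockout were 37.9%, 42.5%, 37.6% and 49.5% under the first of these rules and 58.7%, 61.7%, 56.7% and 66.3% under the second, with the knockout highest under both. Enriched members numbered 33 under the first rule and 121 under the second, 11 at a log2 fold of at least 4, 20 at a −log10 p-value of at least 5, and 74 to 77 with 1 control left out. Merging knockout peaks within 10 nt, which was chosen after seeing the data, left 43. Genes with 10 or more sites numbered 2529 and with 50 or more 280, and those with 20 or more 1334 to 1386 with 1 control left out. The count of 12 genes below the list median in all 3 controls became 0 without centring and 12 to 13 with 1 control left out. Among 100 named genes, 674 of 700 recomputed site counts stayed within 1.5 times. Of 79 named genes with a fold in all 3 controls, 77 moved by more than 1 SD without centring. No paired analysis was possible because the knockout has 1 library and no value comes from a test. The 1 knockout line and the unknown depth limit every statement to these libraries.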
